A study of Arabidopsis thaliana with 6 samples.

Results

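Germin-like proteins are secreted glycoproteins of the cupin superfamily, small barrel-shaped proteins that bind a metal ion and often sit in the cell wall. Cereal germins act as oxalate oxidases and release hydrogen peroxide, and several germin-like proteins of other plants have superoxide dismutase activity. One *Arabidopsis* member, GL22 (also called PDGLP2), is named for its place at plasmodesmata, the channels that join plant cells. The loci described here were 10 germin-like genes of *Arabidopsis thaliana*, chosen by family, with AT1G18980 put at their head because of its difference between the genotypes. The difference of AT1G18980, its interval and its side of the threshold are therefore given as a description and support nothing, since the same arrays chose it.

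Of the 10 listed loci, 5 had a probe set that the probe table tied to that gene alone, out of 13286 genes measured in this way. They were AT1G18980, AT3G05950, AT3G10080, AT5G26700 and AT5G38910. AT1G18970 (GLP4), AT1G02335 (GL22), AT3G05930 (GLP8), AT3G62020 (GLP10) and AT5G39160 were not analysed here. AT1G18970 is the tandem neighbour of AT1G18980, so the intended comparison of that pair could not be made. In RefSeq 11 loci had a symbol starting with GL or GER and a germin synonym, 4 of them on the list. Of the 11, 0 had such a probe set. The 5 measured loci have their locus number as symbol, so this search could not find them, and their family membership was taken from the list.

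Inflorescence stems of 35S::CLE41 plants were compared with those of wild-type (WT) plants, both in the Columbia background. 35S is a viral promoter active in most tissues, and *CLE41* encodes the secreted peptide TDIF, a phloem signal that reaches dividing cambium cells through their receptor PXY. All plants were 5 weeks old, grown with 16 h of light and 8 h of dark, and RNA came from the lower stem, leaving out the 1 cm above the rosette. There were 3 samples of each genotype, each on 1 array, and the labels give neither the number of transgenic lines nor whether samples came from separate plants, so the spread between samples may be technical.

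Values were normalized intensities from the authors, taken here to log2. A gene was called where its adjusted p in limma's fit across all 22746 probe sets was under 0.05. *CLE41* had log2 intensities of 11.27, 11.73 and 11.38 in 35S::CLE41 stems, against 9.68, 9.42 and 9.98 in WT stems, so the overexpressed gene followed the labels. Array medians lay between 91.9 and 101, and followed genotype. They were 97.4, 101 and 97.6 in 35S::CLE41, each above those of WT at 96.3, 92.1 and 91.9. WT replicate 2 stood apart. In it 365 probe sets differed at least 2-fold from the mean of the other WT arrays. For the other 5 arrays, compared in the same way, there were 32 to 100. WT replicate 2 is named beside many of the results that lean on it, but not beside all. Of the stem marker genes 5 of 10 were measured, and the xylan genes *GUT2* (IRX10) and *IRX15* had group means of log2 intensity from 9.42 to 10.44. WT replicate 2 was the lowest array for both. Without it *GUT2* differed by 0.13, against 0.45 with all arrays, and *IRX15* by 0.40, against 0.90. The phloem gene *OPS* differed by 0.41 and was not called, but it was called without WT replicate 2 (0.71; limma adjusted p = 0.0422). *SWEET11* differed by 0.22, and by 0.07 without WT replicate 2, and was not called. The 1 stem marker called with all arrays was *WSD1*, an epidermal wax ester synthase gene, which fell by 3.08 (SE 0.24). Of all measured genes 5.58% were called lower. Of 9 root marker genes 1 was measured, *PYK10*, which stayed at or under 4.21 on every array. Of 8 flower and meristem markers 2 were measured, *CLV3* and *LAS*, with group means of log2 intensity from 4.10 to 4.88. Neither was called, where 12.6% of all measured genes were, and nothing is read from so small a count.

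AT1G18980 was higher in 35S::CLE41 stems, and it was the one measured germin-like gene on the called side of the threshold. The count was 1 higher and 0 lower of 5 members, where 12.6% of all measured genes were called, 7.03% higher and 5.58% lower, and 14.8% of all probe sets, 7.93% higher and 6.86% lower. Since the list was headed by AT1G18980 for this very contrast, nothing is read from that count. Without WT replicate 2 the count was again 1 of 5, where 10.7% of genes were called.

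Intensities of AT1G18980 were 338.7, 304.5 and 511.8 in 35S::CLE41 stems, against 52.8, 26.0 and 59.2 in WT stems. The genotypes did not overlap: the lowest 35S::CLE41 array was 5.14-fold above the highest WT array. On the log2 scale the means were 8.55 ± 0.40 in 35S::CLE41 and 5.44 ± 0.64 in WT (SD, n = 3 each). The log2 difference was 3.11 (SE 0.32; 95% interval 2.37 to 3.86), or 8.66-fold. Among the 13286 genes this was the 3rd largest rise. A rise of at least 4-fold was found for 25 genes, and 13 of these had a WT mean under a log2 intensity of 5.67, the upper limit of the dimmest 40% of probe sets. Of the 6066 genes with a WT mean under that limit 4.02% were called.

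Replicates of AT1G18980 spread widely within each genotype. The highest 35S::CLE41 array, replicate 3, was 1.68-fold above the lowest, and the highest WT array was 2.27-fold above the lowest. That lowest array was WT replicate 2, for which the log2 value minus the mean of the other WT arrays was -1.10. Of all genes 98.8% had a smaller range among the WT arrays. Without WT replicate 2 the log2 difference of AT1G18980 was 2.75, or 6.71-fold. Of the WT arrays only replicate 2, at a log2 intensity of 4.70, lay under the 5.67 line, and it brought the WT mean under it; replicates 1 and 3 lay just above, at 5.72 and 5.89. Intensities so low are poorly resolved, so the size of the fold is uncertain although the arrays were well apart.

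**Figure D1:**
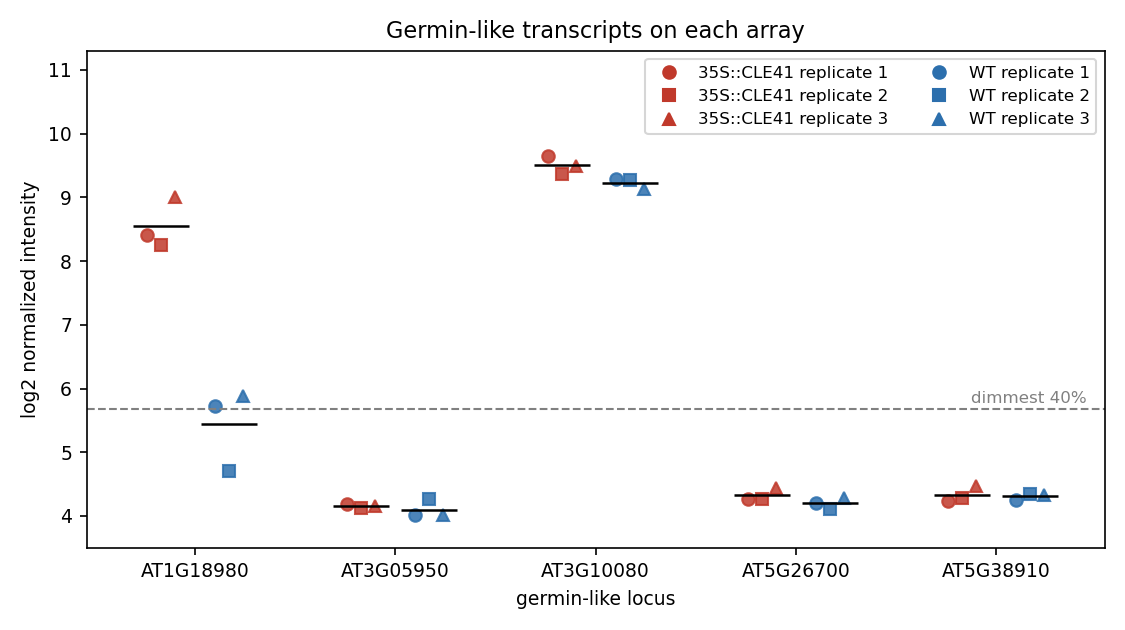
Log2 normalized intensity (vertical axis) of the 5 measured germin-like loci (horizontal axis) on each array; red points are 35S::CLE41 and blue points WT replicates, black bars are group means, and the dashed line at 5.67 is the upper limit of the dimmest 40% of probe sets. AT1G18980 stands at 8.25 or above in 35S::CLE41 and at 5.89 or below in WT, while both genotypes lie close together for the other loci; levels of different loci are not comparable, since each probe set has its own response.

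AT3G10080 was the other germin-like gene with a clear signal, and it was not called. Its intensities were 800.7, 662.9 and 716.7 in 35S::CLE41 stems, against 627.2, 615.4 and 560.2 in WT stems. Each 35S::CLE41 array lay above each WT array, but the gap between the nearest arrays was only 1.06-fold. Mean log2 intensity was 9.50 ± 0.14 in 35S::CLE41 and 9.23 ± 0.09 in WT (SD, n = 3 each), a log2 difference of 0.27 (SE 0.11; 95% interval 0.02 to 0.52). The upper bound of that interval is 1.44-fold. Of all measured genes 69.2% had a smaller difference in size. Together with AT1G18980, 2 of 5 members had genotypes that did not overlap, where 32.0% of all measured genes did, and nothing is read from this count either. WT replicate 2 differed by 0.05 from the mean of the other WT arrays for AT3G10080, and without it the difference was 0.29.

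AT3G05950, AT5G26700 and AT5G38910 were dim in both genotypes, at intensities of 17.4 to 22.1 in 35S::CLE41 stems and 16.2 to 20.3 in WT stems. No detection call came with the values, so these levels cannot be told from background, and a small change of a rare transcript would not be detectable at such a signal. None of the 3 was called. Among the 5830 genes with both means under the 5.67 line, 2.18% were called.

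AT3G05950 had log2 intensities of 4.19, 4.12 and 4.15 in 35S::CLE41 stems, against 4.01, 4.27 and 4.01 in WT stems, with the WT arrays on both sides of the 35S::CLE41 arrays. The difference was 0.05 (SE 0.11; 95% interval -0.19 to 0.30). WT replicate 2 was the highest array here, 0.26 above the other WT arrays, whereas it was the lowest for AT1G18980.

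AT5G26700 had log2 intensities of 4.27, 4.26 and 4.44 in 35S::CLE41 stems, against 4.21, 4.11 and 4.28 in WT stems. The genotypes overlapped by a narrow margin, and the difference was 0.13 (SE 0.10; 95% interval -0.10 to 0.36). AT5G38910 had 4.23, 4.29 and 4.46 in 35S::CLE41 stems, against 4.25, 4.34 and 4.34 in WT stems. These arrays were mixed, with a difference of 0.02 (SE 0.10; 95% interval -0.22 to 0.25), and its sign turned without WT replicate 1 or 35S::CLE41 replicate 3 and with all arrays shifted to 1 median. That shift also turned the sign for AT3G05950. For both loci, then, the data give no direction. Among the 35S::CLE41 arrays, AT1G18980, AT5G26700 and AT5G38910 were highest in replicate 3, and AT3G05950 and AT3G10080 in replicate 1.

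**Figure D2:**
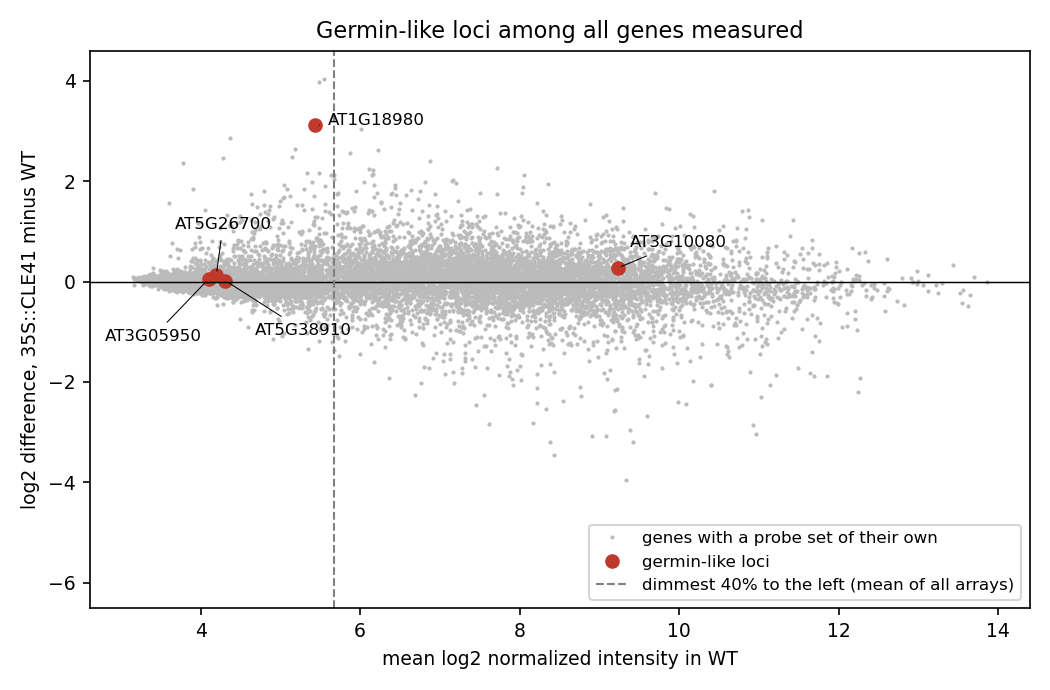
Log2 difference, 35S::CLE41 minus WT (vertical axis), against the mean log2 intensity in WT (horizontal axis) for 13286 genes (grey) and the 5 germin-like loci (red); the dashed line at 5.67 is the limit of the dimmest 40% by mean over all arrays. AT1G18980 lies at 3.11, at the upper edge of all genes, AT3G10080 at 0.27 among brighter genes, and the 3 dim loci within 0.13 of 0.

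The chromosomal surroundings of AT1G18980 were examined next, since the probe table tied no probe set to its tandem neighbour alone. In the RefSeq gene order of TAIR10.1 a further locus, AT1G18975, stands between AT1G18970 and AT1G18980 on chromosome 1, and it had no probe set of its own in the probe table. The nearest measured genes were AT1G18910, AT1G18940 and AT1G18950 on one side and AT1G18990, AT1G19000 and AT1G19010 on the other. None of the 6 was called, where 12.6% of all measured genes were, and nothing is read from so small a count. Their log2 differences ran from -0.24 to 0.48 with a median of 0.19, against a median of -0.003 over all measured genes. In 3 of the 6 the genotypes did not overlap, against 32.0% of all measured genes.

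AT1G18990, which directly follows AT1G18980, had log2 intensities of 3.68, 3.86 and 3.75 in 35S::CLE41 stems, against 3.56, 3.53 and 3.59 in WT stems. This is a difference of 0.20 (SE 0.09; limma adjusted p = 0.204) at a very dim signal. AT1G19000, the next gene on, had 10.28, 10.57 and 10.24 in 35S::CLE41 stems, against 10.14, 9.66 and 9.83 in WT stems. The difference was 0.48 (SE 0.15; limma adjusted p = 0.0706), and it was called in 1 alternative, without WT replicate 1 (adjusted p = 0.0402; 0.617 on the log2 scale). On the other side AT1G18950 differed by 0.18 (SE 0.17; limma adjusted p = 0.55). Next to a log2 difference of 3.11 for AT1G18980, the 6 nearest measured genes differed by at most 0.48 in size. AT1G18910, AT1G18940 and AT1G18990 were dim in both genotypes, so a small change of these would not be detectable.

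Around the other 4 measured germin-like loci, 24 neighbouring genes were examined in the same way, a step added after the data had been seen. Of these 2 were called higher and 3 lower, against 12.6% of all genes called, and 6 were called without WT replicate 2, against 10.7% of all genes. AT3G10120, separated from AT3G10080 by 9 gene entries, rose by 1.80 (SE 0.18), and AT5G38900 near AT5G38910 rose by 1.22 (SE 0.18). Without WT replicate 2 these rises were 1.59 and 1.02. AT3G05980 fell by 1.01 (SE 0.18), AT3G05910 fell by 0.83 (SE 0.15) and AT3G10060 fell by 0.44 (SE 0.12), the last a call that was lost without each single array other than WT replicate 2. Without WT replicate 2 these falls were 0.82, 0.69 and 0.50. The gene entries between a called gene and its germin-like locus were 7 for AT3G05910 and 4 for AT3G05980. They were 2 for AT5G38900 and 1 for AT3G10060. The germin-like loci concerned, AT3G10080, AT3G05950 and AT5G38910, were themselves not called. AT3G05950 and AT5G38910 were dim in both genotypes, so nothing is read from this.

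**Figure D3:**
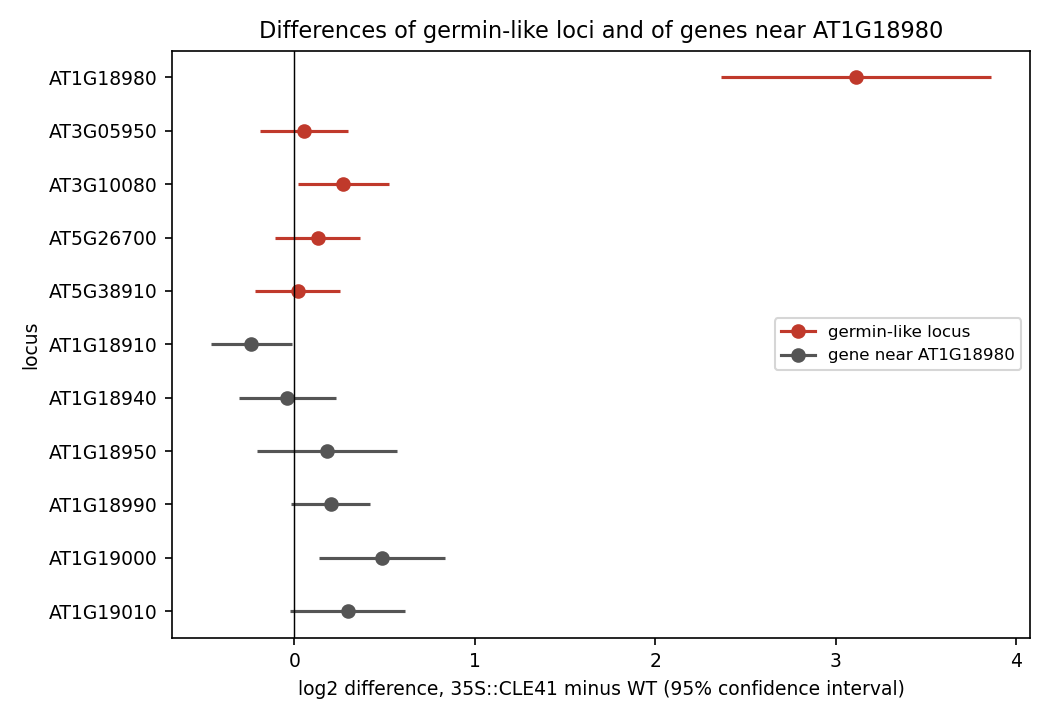
Log2 difference, 35S::CLE41 minus WT, with its 95% confidence interval (horizontal axis) for the 5 germin-like loci (red) and the 6 nearest measured genes around AT1G18980 (grey). AT1G18980 has an interval of 2.37 to 3.86, and every other point lies between -0.24 and 0.48.

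Genes whose pattern over the 6 arrays was most like that of AT1G18980 were found by the root mean square difference between log2 values, each centred on its own mean. The nearest was *CHI* (AT2G43570), a chitinase gene, at 0.373, followed by *IAA30* (AT3G62100), an Aux/IAA gene of auxin response, at 0.425. AT5G53820 at 0.475, AT4G15660 at 0.504 and AT2G28510 at 0.519 completed the 5. Over the same arrays *CLE41* stood at 0.781 from AT1G18980, and the other germin-like loci stood at 1.49 to 1.61. The measure takes in the genotype difference, for which AT1G18980 was chosen, so nothing is read from these distances.

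*CHI* had log2 intensities of 7.87, 8.23 and 9.17 in 35S::CLE41 stems, against 6.33, 5.21 and 6.07 in WT stems. Like AT1G18980 it was highest in 35S::CLE41 replicate 3 and lowest in WT replicate 2. *IAA30* had 7.43, 7.39 and 8.07 in 35S::CLE41 stems, against 5.18, 4.98 and 5.28 in WT stems, again with these arrays at the ends. Of the 5 genes 4 were highest in 35S::CLE41 replicate 3, the exception being AT2G28510, and 4 were lowest in WT replicate 2 among the WT arrays, the exception being AT5G53820. The 5 differences ran from 2.40 to 2.86. Both the size and the shared high and low arrays are what the measure of likeness selects, so neither is a finding. Without WT replicate 2 the difference of *CHI* was 2.225, against 2.555 with all arrays, and that of AT2G28510 was 2.06, against 2.40.

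**Figure D4:**
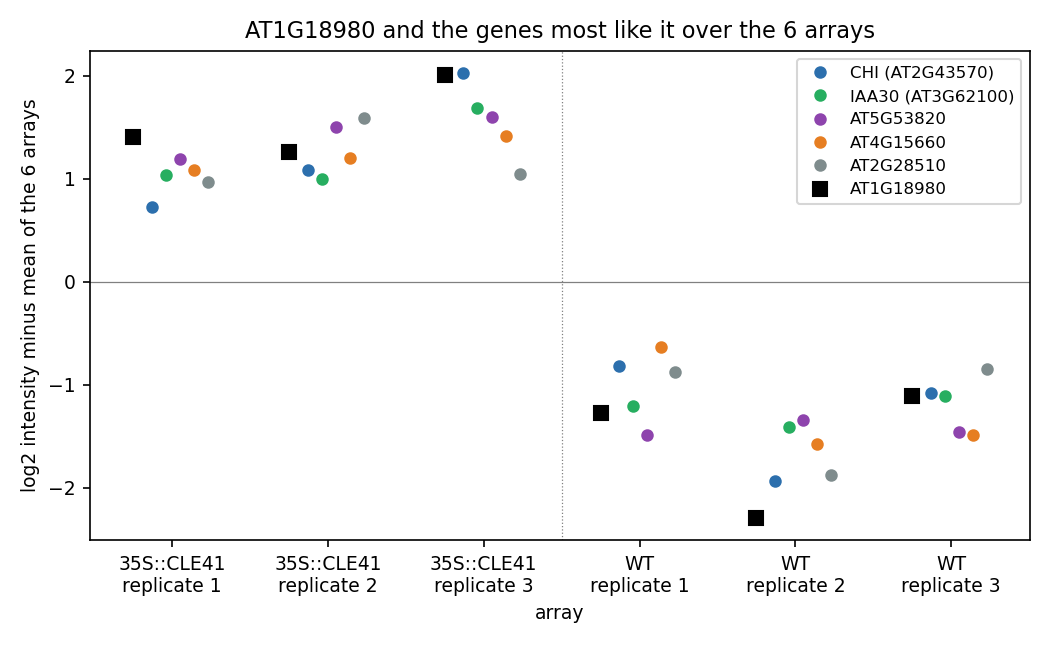
Log2 intensity minus the mean of the 6 arrays (vertical axis) on each array (horizontal axis) for AT1G18980 (black squares) and the 5 genes with the smallest root mean square difference from it (coloured points). All 6 genes lie above 0 in 35S::CLE41 and below 0 in WT, and AT1G18980 has its lowest value in WT replicate 2.

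Germin-like proteins are set in the biochemistry of superoxide and hydrogen peroxide, and the genes of these pathways were therefore counted. Of 9 listed superoxide dismutase genes, their copper chaperone gene included, 2 were measured and neither was called, where 12.6% of all genes were. *CCS*, encoding the copper chaperone that loads superoxide dismutase, differed by -0.16 (SE 0.24) and AT3G56350 by 0.03 (SE 0.10). AT3G56350 was dim in both genotypes, and of all genes dim in both 2.18% were called, so nothing is read from this count. Of 10 NADPH oxidase genes, whose products make superoxide at the cell surface, 3 were measured and 1 was called higher, against 7.03% of all genes. AT1G19230 had log2 intensities of 6.14, 5.60 and 5.43 in 35S::CLE41 stems, against 4.82, 4.43 and 4.81 in WT stems, so the genotypes were apart. It rose by 1.03 (SE 0.20; limma adjusted p = 0.0139). AT4G11230 differed by 0.03 (SE 0.09). It was 1 of 2 NADPH oxidase genes dim in both genotypes, where a small change would not be detectable.

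Enzymes that remove hydrogen peroxide were represented by 2 of 19 listed genes, and both fell, where 5.58% of all genes were called lower. *TAPX*, the thylakoid ascorbate peroxidase gene, had 8.68, 8.27 and 8.48 in 35S::CLE41 stems, against 9.16, 9.25 and 9.15 in WT stems, and fell by 0.71 (SE 0.12; limma adjusted p = 0.00967). *SAPX*, the stromal ascorbate peroxidase gene, fell by 0.66 (SE 0.14; limma adjusted p = 0.0202), and its call was lost without WT replicate 3 and without each 35S::CLE41 array in turn, at adjusted p of up to 0.0729. Both products are plastid enzymes. Of 7 photosynthesis genes 3 were measured, and *SBPASE* also fell, by 0.66 (SE 0.11), while *PRK* differed by -0.34 (SE 0.13) and *RCA*, whose genotypes overlapped, by -0.18 (SE 0.15). The summed intensity of the 3, in which the brightest probe set weighs most, was 13190 to 15360 in 35S::CLE41 stems and 16720 to 19340 in WT stems. In bulk stems, fewer cells of a type and less RNA per cell cannot be told apart, and the part of photosynthetic cells in the ascorbate peroxidase values was not tested.

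Of 19 plasmodesma genes 3 were measured, all from the listed beta-1,3-glucanases, enzymes that break down the callose around the channels. None was called, where 12.6% of all measured genes were. AT1G66250 differed by -0.65 (SE 0.21; limma adjusted p = 0.0801), a call gained with array weights (adjusted p = 0.0457), and AT3G13560 by -0.53 (SE 0.21; limma adjusted p = 0.132). Without WT replicate 2 these differences were -0.43 for AT1G66250 and -0.37 for AT3G13560. Among 20 other cupin genes 10 were measured, 8 of them dim in both genotypes, and 0 were called, with a median log2 difference of 0.01. Of all measured genes 12.6% were called, and of those dim in both genotypes 2.18%, so nothing is read from this count. The brighter pair were AT1G07750, which differed by 0.47 (SE 0.14; limma adjusted p = 0.0621), and *ARD4*, an acireductone dioxygenase gene, which differed by 0.40 (SE 0.13; limma adjusted p = 0.073). In both the genotypes did not overlap, as in 32.0% of all measured genes. AT1G07750 was called with quantile normalization again (adjusted p = 0.0499) and *ARD4* with array weights (adjusted p = 0.0435).

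Of 9 genes listed as early stress genes, some of which handling at harvest can also induce, 3 were measured and 2 rose. Of all genes 7.03% were called higher. *STZ* (ZAT10), a zinc finger repressor gene, rose by 1.72 (SE 0.37) and *WRKY53* by 1.54 (SE 0.32), while the defensin gene *PDF1.2* differed by -1.01 (SE 0.79). *STZ* had 8.13, 8.15 and 8.60 in 35S::CLE41 stems, against 7.03, 5.62 and 7.08 in WT stems, so that, as for AT1G18980, 35S::CLE41 replicate 3 was the highest array and WT replicate 2 the lowest. Without WT replicate 2 the difference of *STZ* was 1.24. The call of *STZ* was lost when each 35S::CLE41 array in turn was left out, at adjusted p of up to 0.0734, and that of *WRKY53* without 35S::CLE41 replicate 2 (adjusted p = 0.0723). Summed intensity of the 3 stress genes was 371.8 to 747.5 in 35S::CLE41 stems and 182.1 to 359.3 in WT stems. That sum also holds *PDF1.2*, which was not called and whose genotypes overlapped. Its intensities of 191 in 35S::CLE41 replicate 3 and 185.2 in WT replicate 3 are part of the highest sum of each genotype. The part of these stress genes in the AT1G18980 values was not tested. The stem marker *WSD1*, named above, went the other way and fell by 3.08 (SE 0.24).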

How the data were processed

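RNA was labelled with biotin and hybridised to 1 array per sample, per the labels' protocols. The deposited values were linear intensity values, already normalized by the authors as the near-equal array medians show. RMA and limma were named, with no version or role, per the submitters' processing notes. The genome build and any detection call are not given in the sources used here. Intensities were taken to log2. Of 22746 probe sets, 13513 mapped to 1 gene and 503 to several in the platform's annotation, and 8730 were not listed there. RefSeq (TAIR10.1) named 13436 of the 1-gene probe sets, covering 13286 genes. For a gene with several probe sets the one with the highest mean was used, and each germin-like locus had 1.

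Differences (35S::CLE41 minus WT) came from limma 3.58.1 in R 4.3.3 (lmFit, eBayes, two-sided), and p-values were adjusted by Benjamini-Hochberg across every probe set. The procedure was tested on simulated data. The germin-like loci and gene lists were chosen with earlier results of these data known. The rule for named genes took all members, *CLE41*, the 3 nearest measured genes on each side, the 5 most alike genes, and from each list up to 4 called genes or the 2 with the smallest p. The alternatives were the replicate block, 2 further normalizations, a dim filter, 1-gene probe sets, other variance settings, array weights, an added 16 before log2, and leaving out each array. Figures were drawn with matplotlib 3.10.9.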

Additional observations from a re-analysis of the deposited data

How the results depend on the processing

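AT1G18980 was chosen for this contrast on these arrays, so its values here are a description and no support. It stayed on the called side and higher in the 14 refits, with a log2 difference of 2.75 (without WT replicate 2) to 3.34 without single arrays and of 2.70 (16 added before log2) to 3.11 with all arrays. AT3G10080, not called, ran from 0.19 to 0.34 and AT5G26700 from 0.05 to 0.17. AT5G38910 reversed to -0.0601 with arrays shifted to 1 median, -0.0102 without WT replicate 1 and -0.0498 without 35S::CLE41 replicate 3 (0.066 at most without single arrays). AT3G05950 reversed to -0.026 with arrays shifted to 1 median (0.0096 to 0.14 without single arrays). That shift left the median difference of all probe sets at -0.077, against 0.00197, and split the calls into 1392 higher and 1975 lower, against 1803 higher and 1561 lower. The number of members called was 1 throughout. The 3 dim loci had no value with the dimmest 40% left out. The fit of all probe sets called 3364. Separate fits called 1607 with only the 13513 1-gene probe sets tested and 1699 to 2872 without single arrays; their overlap with the 3364 was not counted. The replicate numbers are not said to pair the samples; deviations of same-numbered samples correlated at -0.0102, 0.0805 and -0.0925. The replicate block gave 2897 called probe sets, that of AT1G18980 among them, and ended the call of AT3G10060. Alternatives were counted for 23 of the other named genes. Of their 318 values, 15 lost a call, 4 gained one (AT1G19000, AT1G66250, AT1G07750 and *ARD4*) and 0 reversed. The remaining named genes, *OPS* among them, were not in this count. With 3 arrays per genotype and no detection call, small differences and dim transcripts are poorly resolved.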
